A study of Mus musculus with 6 samples.

Results

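The genes described are 6 receptor chains of the interleukin-2 (IL-2) family, Il2ra, Il2rb, Il2rg, Il7r, Il4ra and Il21r, and 4 genes of the suppressor of cytokine signalling (SOCS) family, Socs1, Socs2, Socs3 and Cish. These 10 genes were taken by symbol from tables of 38924 genes, and all 10 were among the 13694 genes with enough reads for a test. RNA came from mouse CD4+CD25+ T cells, a population in which regulatory T cells (Tregs) are common. These had been taken, as the labels have it, from spleen and lymph nodes of untreated wild-type mice, and the design text adds that the nodes were mesenteric and that males and females of 10 to 16 weeks were used. They were sorted into cells with (ILT3+, 3 samples) and without (ILT3-, 3 samples) ILT3 on the surface, an inhibitory receptor best known from antigen-presenting cells. Both groups had been enriched for CD25, the protein that Il2ra encodes, so that Il2ra was selected for in both. Whether the samples are separate animals or pools is not in the labels, so each p-value rests on a spread between samples that may be technical in part.

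IL-2, IL-4, IL-7, IL-9, IL-15 and IL-21 signal through receptors that share the common gamma chain, encoded by Il2rg. The chains bind the kinases JAK1 and JAK3, which activate STAT transcription factors, chiefly STAT5 for IL-2, IL-7 and IL-15. STAT5 induces Cish and other SOCS genes, whose products bind the receptors or kinases and damp the signal. Tregs are known for high CD25, for dependence on IL-2 made by other T cells, and for low IL-7 receptor compared with conventional CD4+ T cells.

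Library depth was 9334370 to 13648274 total gene reads. Levels are in CPM, read counts scaled to a common library size, with library sizes adjusted by TMM, a factor for differences in RNA composition, and 3 values in a row stand for samples 1, 2 and 3 of a group. In edgeR's quasi-likelihood test at an adjusted p of 0.05, 2.31% of all tested genes were called, 1.96% as higher and 0.343% as lower in ILT3+ libraries. Lilrb4, the gene of the sorted protein, was at 3.24 to 5.81 CPM in ILT3- and 284 to 407 CPM in ILT3+ libraries. Samples carry the numbers 1 to 3 in each group, and both libraries numbered 1 stood apart from the others. Deviations from the group means correlated at 0.40 between the 2 libraries numbered 1 over all tested genes. Between either of them and a library of the other group with another number they correlated at -0.258 to -0.305. Deviations cancel within a group, so a positive value forces the others to be negative on balance, and these add no separate support. The standing apart of the libraries numbered 1 touches most of the genes described here. ILT3- sample 1 was the highest of its group in 8 of the 10 genes and ILT3+ sample 1 in 6, where over all genes of at least 10 CPM the shares were 37.2% and 39.4%. The 10 genes are therefore given with all 6 libraries, and without those numbered 1 where the call or the direction changes.

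**Figure D1:**
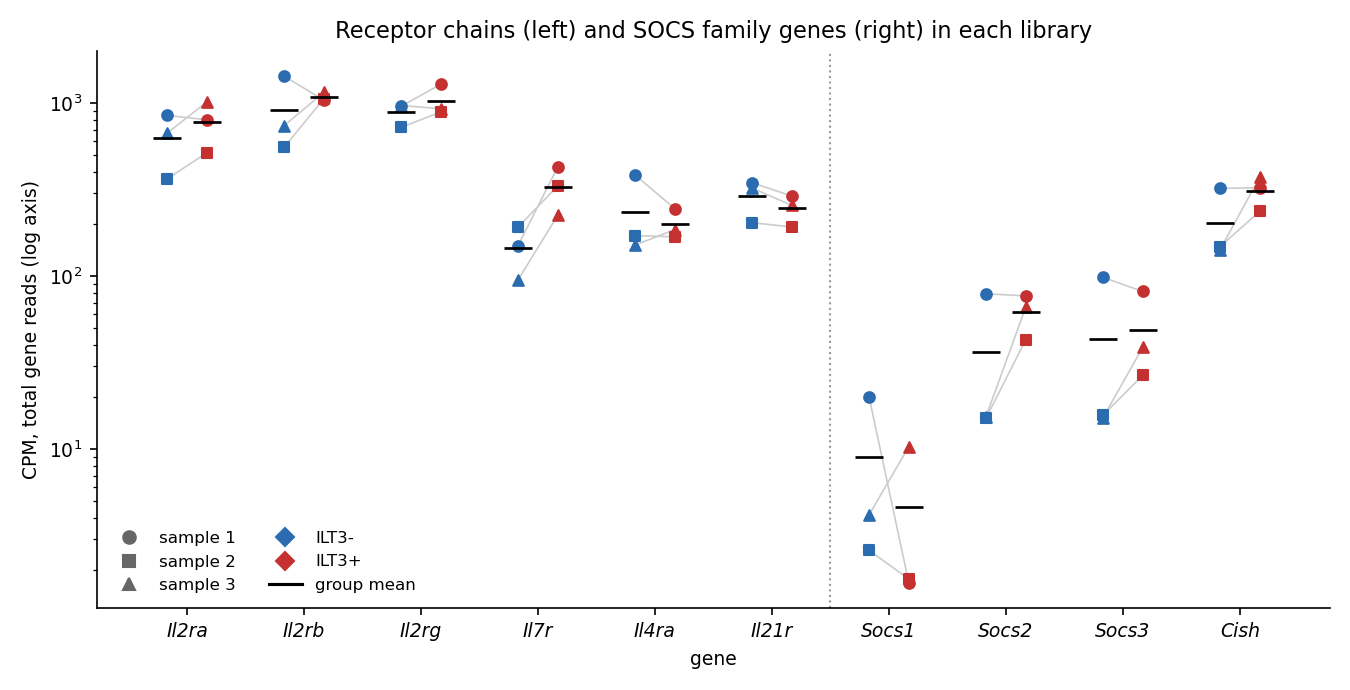
CPM of the 10 genes in each library on a log axis, ILT3- in blue and ILT3+ in red, with 1 symbol per sample number, black bars for group means and grey lines between libraries of the same number. Il7r has no overlap between the groups, while ILT3- sample 1 (blue circle) lies among or above the ILT3+ libraries for Socs2, Socs3 and Cish.

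In edgeR's test on all 6 libraries without a block, 0 of 10 passed the adjusted threshold, beside 2.31% of all genes, and 1 of 10, Il7r, had an unadjusted p under 0.05, beside 13.8% of all genes. DESeq2 called 1 of the 10, again Il7r, where it called 6.92% of all genes, and limma voom, which called 2.31% of all genes, called 0. None of the 10 was called on unique reads (2.68% of all genes), on exon reads (2.05%), with RLE or upper quartile factors (2.29% each) or without the filter on low counts (1.6%). The block on exon reads (6.07% of all genes) and on unique reads (6.5%) called Il7r alone. Leaving out 1 library called Socs2 without ILT3- sample 1, and none of the 10 without ILT3- sample 2 (0.468% of all genes), ILT3- sample 3 (0.215%), ILT3+ sample 1 (1.8%), ILT3+ sample 2 (0.37%) or ILT3+ sample 3 (0.397%). The receptors had a median log2 fold change of 0.24 and the SOCS genes 0.40, beside -0.02 over all tested genes. Of the 10 genes 7 had a positive and 3 a negative value.

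STAT5 induces Cish and binds the palindrome TTCNNNGAA, so RefSeq promoter windows (250 bases before to 50 after the start, build GRCm38.p6) were searched for it. The palindrome reads the same on both strands. It was found in 3 of the 8 genes that matched the table, and in 8.30% of all 32851 windows. Cish held 2 copies, as did or exceeded 0.457% of windows, the first beginning at the RefSeq start itself and the second 11 bases on. Socs3 held it at position -154 and Il7r at position -142 from the start. The matching stretches are shown 5′ to 3′ on the strand of each gene, with the palindrome in capitals.
Cish: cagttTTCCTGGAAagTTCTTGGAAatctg
Socs3: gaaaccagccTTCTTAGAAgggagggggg
Il7r: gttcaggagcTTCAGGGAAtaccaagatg
They lie at chr9:107296654-107296683 (plus strand), chr11:117969502-117969530 (minus strand) and chr15:9530000-9530028 (minus strand). GENCODE M21, on the same build, annotates the Cish stretch as untranslated exon, and the other 2 as inside its gene models but in no exon. Windows of Il2ra, Il2rg, Il4ra, Il21r and Socs1 did not hold these letters. A match describes the letters only, since binding was not measured.

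Il7r (chr15:9506161-9529876, minus strand, GRCm38), the IL-7 receptor alpha chain, which T cells use to receive the survival signal of IL-7, had the smallest p of the 10. It was counted at 149, 191 and 94.7 CPM without ILT3 and 426, 331 and 224 CPM with it. Every ILT3+ library was above every ILT3- library, which held for 11.4% of all genes in this direction. The group means were 145 ± 48.3 and 327 ± 101 CPM (SD, n = 3 each). The fitted log2 fold change was 1.17 (adjusted p = 0.133, SE 0.32, edgeR), a 2.25-fold higher level that did not pass the test. With the sample number as a block, the log2 fold change was 1.18 (SE 0.16) and Il7r was called (adjusted p = 0.0115), where 6.81% of all genes were called. DESeq2 called it without the block (adjusted p = 0.0151). Within pairs of the same number, the log2 ratios of ILT3+ to ILT3- were 1.51, 0.79 and 1.24 for numbers 1, 2 and 3, so Il7r was higher in 3 of 3 pairs. On exon reads the log2 fold change was 1.24 (SE 0.38). Introns held 33.3% ± 6.48 of its reads in ILT3- and 30.5% ± 9.16 in ILT3+ libraries (SD, n = 3), the highest intron share among the 10 genes.

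Some other cell types carry Il7r, among them innate lymphoid cells, so their markers are given beside it. In the NK and innate lymphoid list of 5 genes, the summed level was 19.9 to 23.3 CPM in ILT3- and 156 to 221 CPM in ILT3+ libraries. Kit made up most of it, at 125, 220 and 190 CPM in the 3 ILT3+ libraries, and was called as higher (1 of 1 tested gene of the list). The natural killer receptor gene Klrb1c was at 23.9 CPM in ILT3+ sample 1 and at 0.161 and 0.638 CPM in samples 2 and 3, Ncr1 at 5.82, 0 and 0.638 CPM, and Klra8 at 0 in all 6 libraries. The part of such cells in the level of Il7r was not tested; without ILT3+ sample 1 its log2 fold change was 0.94. In bulk samples, more cells of a type and more RNA per cell cannot be told apart.

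By a fixed rule, the genes with the profile most like that of Il7r over the 6 libraries were sought among 8567 genes of at least 10 CPM. The measure was the root mean square distance between log2 CPM profiles, each centred on its own mean. The nearest were Ccr9, a gut-homing chemokine receptor gene (distance 0.16), Abcb1a, a drug efflux transporter gene (0.17), and Crmp1 (0.18). Ccr9 was counted at 26.7, 39.8 and 17.1 CPM without ILT3 and 102, 57.7 and 42.1 CPM with it. Its log2 fold change was 1.27 (SE 0.41) on total gene reads and 3.05 (SE 1.44, adjusted p = 0.429, edgeR) on exon reads. It is also 1 of the 5 plasmacytoid dendritic cell markers given below. By edgeR none of the 3 was called without the block (adjusted p = 0.212, 0.292 and 0.103), and Abcb1a (0.0215) and Crmp1 (0.0443) were called with it. DESeq2 called Crmp1 (adjusted p = 0.00662).

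The 3 chains of the high-affinity IL-2 receptor had overlapping values in the groups. Il2ra, which encodes the alpha chain CD25, was counted at 845, 363 and 667 CPM without ILT3 and 797, 514 and 1013 CPM with it. The lowest value of each group was that of sample 2, and the spread within a group was larger than the difference between the means, 625 ± 244 and 774 ± 250 CPM (SD, n = 3). The log2 fold change was 0.31 (adjusted p = 0.80, SE 0.36).

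Il2rb, the beta chain that carries most of the signalling and is shared with the IL-15 receptor, was counted at 1427, 553 and 738 CPM without ILT3 and 1035, 1056 and 1147 CPM with it. Its ILT3+ libraries lay within 1.11-fold of each other and its ILT3- libraries within 2.58-fold. The log2 fold change was 0.25 (adjusted p = 0.829, SE 0.33), and 0.80 (adjusted p = 0.0505, SE 0.18) without both samples numbered 1. On exon reads without those samples Il2rb was called (log2 fold change 0.75, adjusted p = 0.0362), where 6.62% of all genes were called. All of its reads were uniquely placed.

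Il2rg, the common gamma chain, was counted at 954, 720 and 964 CPM without ILT3 and 1279, 885 and 925 CPM with it. Its log2 fold change of 0.23 (adjusted p = 0.756, SE 0.22) was within the spread of the libraries. Of its reads 6.47% were counted as unique, and it overlaps a second gene model on the same strand, Gm20489, which shares 30.5% of its exon bases in GENCODE M21, so its reads cannot be assigned with certainty. Unique reads alone gave a log2 fold change of 0.115 (adjusted p = 0.896, edgeR), and 0.019 (adjusted p = 0.98) without both samples numbered 1.

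The receptors for IL-4 and IL-21 had small negative values. Il4ra, the IL-4 receptor alpha chain, which IL-13 receptors also use, was counted at 383, 171 and 151 CPM without ILT3 and 244, 168 and 185 CPM with it. ILT3- sample 1 stood above the other 5 libraries, and the log2 fold change of -0.24 (adjusted p = 0.858, SE 0.36) became 0.17 (adjusted p = 0.668) without both samples numbered 1. Il21r, which acts mainly through STAT3, was counted at 346, 203 and 322 CPM without ILT3 and 289, 192 and 255 CPM with it. The groups overlapped, but within pairs of the same number Il21r was lower in 3 of 3, by log2 ratios of -0.26, -0.08 and -0.34, a pattern seen in 22.2% of all genes. Its log2 fold change was -0.24 (adjusted p = 0.777, SE 0.26).

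**Figure D2:**
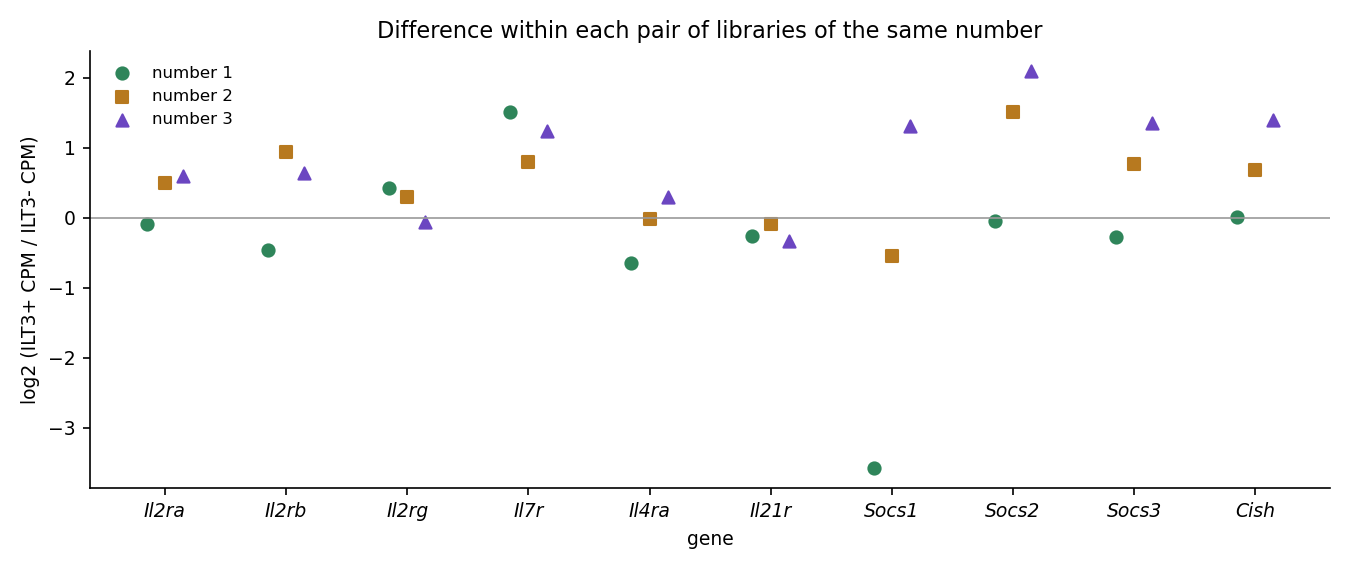
Log2 ratio of ILT3+ to ILT3- CPM for each of the 10 genes within the libraries numbered 1, 2 and 3, with 0 marked by a line. Il7r lies above 0 at all numbers, whereas Socs2, Socs3 and Cish lie near or below 0 for number 1 and above it for numbers 2 and 3.

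For Socs1, Socs2 and Socs3 the SD of the ILT3- libraries was larger than the difference between the group means. Socs2 (chr10:95385362-95417180, minus strand), whose product damps growth hormone and STAT5 signals, was counted at 78.8, 15.01 and 15.3 CPM without ILT3 and 76.6, 42.7 and 65.7 CPM with it. ILT3- samples 2 and 3 lay below all ILT3+ libraries and ILT3- sample 1 above all of them. With all libraries the log2 fold change was 0.77 (adjusted p = 0.704, SE 0.64, edgeR). Without both samples numbered 1 it was 1.87 (SE 0.28) and Socs2 was called (adjusted p = 0.0112), where 5.64% of all genes were called, 4.48% as higher. Without ILT3- sample 1 alone it was 2.02 (adjusted p = 0.0251), where 2.24% of all genes were called. Within pairs the log2 ratios were -0.04, 1.51 and 2.10 for numbers 1, 2 and 3.

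Cish (chr9:107296026-107302784, plus strand), a classic STAT5 target whose product binds the IL-2 receptor beta chain, had the highest level of the 4. It was counted at 319.9, 147 and 141 CPM without ILT3 and 323, 236 and 371 CPM with it. ILT3- sample 1 lay among the ILT3+ libraries and the other ILT3- libraries below them. The group means were 203 ± 101 and 309.7 ± 68.5 CPM (SD, n = 3), with a log2 fold change of 0.61 (adjusted p = 0.525, SE 0.35). Without both samples numbered 1 it was 1.10 (SE 0.23) and Cish was called (adjusted p = 0.0363). Within pairs the log2 ratios were 0.01, 0.68 and 1.39. Cish and Il7r were the 2 of 10 genes that were higher in all 3 pairs, as were 20.7% of all genes. Of the Cish reads 25.1% were unique, and those alone gave a log2 fold change of 0.78 with all libraries and 1.304 (adjusted p = 0.0291) without the samples numbered 1, where 6.11% of all genes were called. The 2 models on the opposite strand, Gm17040 and Gm17041, share 4.07% and 7.46% of its exon bases.

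Socs3, which binds the IL-6 family receptor gp130 and is induced mainly by STAT3, was counted at 97.9, 15.6 and 15.1 CPM without ILT3 and 81.2, 26.6 and 38.5 CPM with it. The highest library of each group was the one numbered 1. Its log2 fold change was 0.19 (adjusted p = 0.955, SE 0.76), and 1.11 (adjusted p = 0.0791, SE 0.29) without both samples numbered 1. Its sign was negative in 3 of the 6 fits that leave out 1 library (ILT3- number 2, ILT3- number 3 and ILT3+ number 1), so no direction is given for it.

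Socs1, whose product inhibits the JAK kinases directly, had the fewest reads, 426 in all 6 libraries together. It was counted at 20.1, 2.59 and 4.14 CPM without ILT3 and 1.69, 1.77 and 10.3 CPM with it, from 18 to 167 reads per library. ILT3- sample 1 and ILT3+ sample 3 were high and the other 4 low. Its log2 fold change was -0.95 (adjusted p = 0.776, SE 1.00) and turned to 0.87 (adjusted p = 0.656) without both samples numbered 1. No read of Socs1 spanned an exon junction. Its protein is encoded within a single exon.

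Socs1, Socs2 and Socs3 varied widely within the ILT3- group. The SD of log2 CPM over the 3 ILT3- libraries was 1.55 for Socs1, 1.54 for Socs3 and 1.37 for Socs2, and the median over 9140 genes with a mean of at least 10 CPM, which Socs1 does not reach, was 0.33. Of those genes 98.4% varied less than Socs3 and 97.6% less than Socs2. In ILT3+ libraries the SDs of Socs1, Socs3 and Socs2 were 1.49, 0.82 and 0.44, beside a median of 0.28, and 73.5% of genes varied less than Socs2. Cish, with 0.66 in ILT3- and 0.34 in ILT3+ libraries, lay within the range of the receptors, which was 0.24 for Il2rg to 0.73 for Il4ra in ILT3- and 0.08 for Il2rb to 0.50 for Il2ra in ILT3+ libraries.

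**Figure D3:**
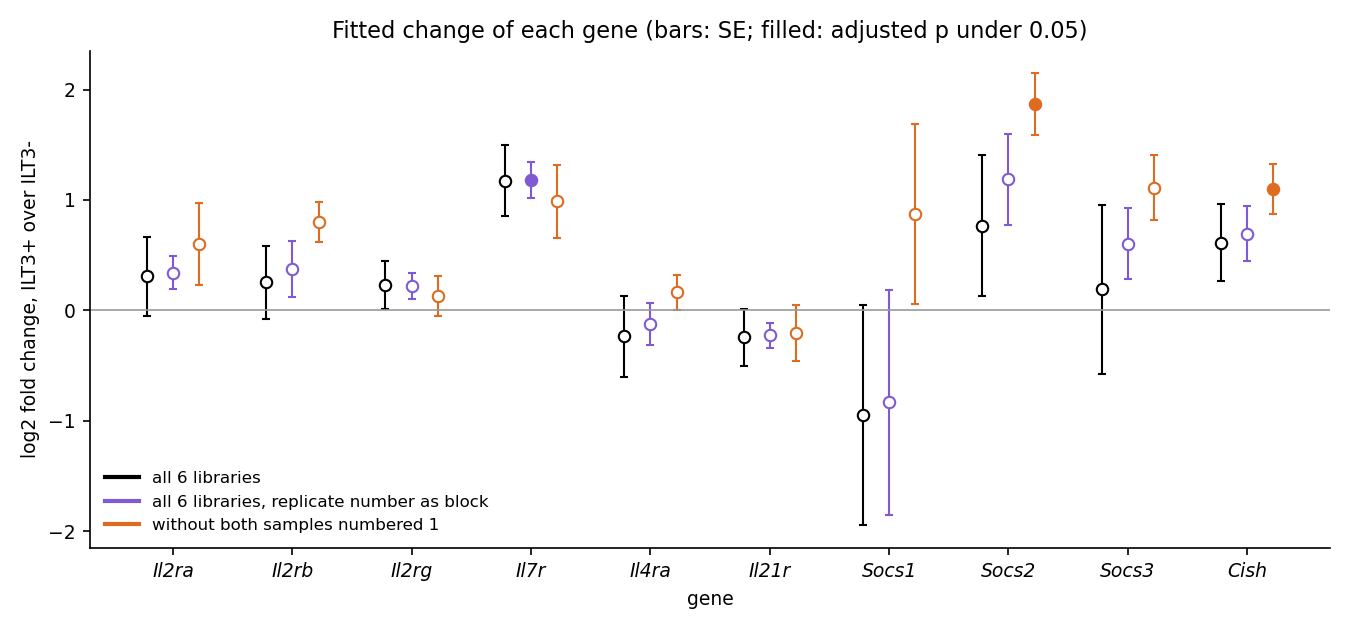
Fitted log2 fold change of ILT3+ over ILT3- for each of the 10 genes with all 6 libraries (black), with the sample number as a block (purple) and without both samples numbered 1 (orange), with bars for the SE and filled points for an adjusted p under 0.05. Il7r stays between 0.99 and 1.18 in the 3 fits, while Socs2 goes from 0.77 to 1.87 and Socs1 from -0.95 to 0.87.

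Levels of different genes were compared per length, as exon CPM per kilobase of exon. Over the 6 libraries Il2rg (531 ± 98.9, SD) and Il2rb (454 ± 135) were highest and could not be ordered, since Il2rg was above Il2rb in 3 of 6 libraries. On total exon reads both were clear of Il2ra (149 ± 48.6), with Il2rb 3.05-fold above Il2ra and no overlap of their ranges. Il21r (117 ± 25.9), Il7r (69.3 ± 41.8), Il4ra (53.7 ± 22.3) and Cish (53.0 ± 20.4) followed, each overlapping its neighbour in range. Il7r was at 41.2 ± 15.7 in ILT3- and 97.5 ± 41.8 in ILT3+ libraries (SD, n = 3) on this scale. Below Cish came Socs3 (21.1 ± 16.5), Socs1 (7.24 ± 7.94) and Socs2 (6.46 ± 3.91). Cish was above Socs3, and Socs3 above Socs1, in 6 of 6 libraries although their ranges overlapped, while Socs1 was above Socs2 in 4 of 6. The exon length of Socs2 in the files, 9531 bases, joins many transcripts, which lowers its value on this scale. The scale also counts reads that are not unique. Unique were 4308 of 65547 exon reads for Il2rg and 4074 of 17176 for Cish. For Il2ra they were 38917 of 38927, and for Il2rb and Socs3 all exon reads. The places of Il2rg and Cish in this order therefore rest mostly on reads that are not unique, and are not settled.

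Of the other genes of the pathway, 77 were listed by role and 70 were tested. The lists were drawn up with earlier results of these data known. By edgeR 2 of the 70 were called, both higher, beside 2.31% of all genes, and 19 had an unadjusted p under 0.05, beside 13.8%. With the sample number as a block 11 were called, 5 higher and 6 lower, beside 6.81%. In 26 of the 70 genes the groups did not overlap, beside 20.2% of all genes, 10 being higher (beside 11.4%) and 16 lower (beside 8.76%) in ILT3+ libraries. The median log2 fold change was -0.06. Calls in each list below stand beside the same shares of all genes. These were 2.31% for edgeR and for voom, 6.92% for DESeq2, 6.81% with the block and 13.8% for an unadjusted p under 0.05.

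The cytokines themselves had few reads. Of 8 listed, 3 were tested, of which edgeR, DESeq2 and voom each called 0 and 1, Il15, reached p under 0.05 in edgeR before adjustment. Il2 had 29 reads in the ILT3- and 102 in the ILT3+ libraries, or 0, 0.786 and 1.38 CPM against 0.751, 2.09 and 5.42 CPM (adjusted p = 0.556). Il15, which was at 0.471 to 1.201 CPM in ILT3- and 1.69 to 4.50 CPM in ILT3+ libraries, had an adjusted p of 0.232. Il21, named after its values were seen, was at 1.56, 0 and 0 CPM in ILT3- and 0, 3.14 and 4.23 CPM in ILT3+ libraries (adjusted p = 0.673). Without both samples numbered 1, which leaves ILT3- libraries at 0 only, it was called (adjusted p = 0.0152). Il9 and Tslp had 0 reads in all 6 libraries, where 3 reads correspond to 0.220 to 0.321 CPM. Of 4 further receptor chains edgeR, DESeq2 and voom each called 0, and 0 reached p under 0.05 in edgeR before adjustment. Crlf2, which pairs with the Il7r product in the receptor for TSLP, was counted at 30.6, 26.6 and 33.1 CPM without ILT3 and 37.9, 42.9 and 44.7 CPM with it (log2 fold change 0.47, SE 0.21, adjusted p = 0.386). Il15ra had a log2 fold change of 0.21 (adjusted p = 0.851, SE 0.31).

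Of 10 kinase and STAT genes edgeR, DESeq2 and voom each called 0, and 2 reached p under 0.05 in edgeR before adjustment. Jak1, which all receptors of the family use, was counted at 850, 888 and 820 CPM without ILT3 and 680, 706 and 576 CPM with it. The groups did not overlap, with a log2 fold change of -0.38 (adjusted p = 0.374, SE 0.17).

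Of 12 further brakes of JAK-STAT signalling, 9 had a negative log2 fold change and the median was -0.21. By edgeR 0 were called and 2 had an unadjusted p under 0.05, by DESeq2 2 and by voom 0. With the block 2 were lower. DESeq2 called Ptpn6 (adjusted p = 0.0226) and Sh2b3 (adjusted p = 0.0118), the latter named after its values were seen. Ptpn6, the phosphatase SHP-1, was counted at 253, 225 and 370.4 CPM without ILT3 and 176, 150.5 and 156 CPM with it, so that the groups did not overlap (log2 fold change -0.81, SE 0.22, adjusted p = 0.132, with the block 0.0464). Its call with the block was lost on unique reads (adjusted p = 0.0513). Cblb, a ubiquitin ligase that restrains T cell activation, had a log2 fold change of -0.54 (adjusted p = 0.524, SE 0.31) and was lower with the block (-0.55, adjusted p = 0.0247), a call that was lost on exon reads with the block (-0.62, adjusted p = 0.0508).

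A further list held cytokine receptors outside the family, entered as under SOCS1 or SOCS3 feedback, which was not measured for any of them here. Of its 11 tested genes edgeR called 1 as higher and 0 as lower, and voom the same 1. DESeq2 called 4, Il12rb1 as higher and Il6ra, Il6st and Ifnar1 as lower (adjusted p = 0.000365, 0.0438 and 0.0137). Il12rb1, the chain shared by the IL-12 and IL-23 receptors, rose from 42.3, 29.8 and 47.7 CPM without ILT3 to 110.3, 115 and 121 CPM with it (log2 fold change 1.53, SE 0.22, adjusted p = 0.0150). The call was lost without ILT3- sample 2 or 3 or ILT3+ sample 2 or 3, at adjusted p of 0.0557 to 0.0781 and log2 fold changes of 1.37 to 1.69. Of the 11, 8 had a negative value, beside 52% of all genes, and 5 of these had an unadjusted p under 0.05, beside 5.37% of all genes in this direction. They were Il6ra, Il6st, Ifnar1 and, named after their values were seen, Ifnar2 and Ifngr2. Il6ra, the IL-6 receptor alpha chain, was counted at 234, 93.8 and 73.2 CPM without ILT3 and 44.8, 24.1 and 26.6 CPM with it. The groups did not overlap, and the log2 fold change was -2.07 (adjusted p = 0.0763, SE 0.47, adjusted p with the block = 0.00612). Without both samples numbered 1 it was -1.69 and Il6ra was called (adjusted p = 0.00622). Il6st, which encodes gp130, had a log2 fold change of -0.65 (adjusted p = 0.158, SE 0.19), and Ifnar1, a chain of the type I interferon receptor, one of -0.60 (adjusted p = 0.123, SE 0.16, adjusted p with the block = 0.0276). Il10ra, the IL-10 receptor alpha chain, had one of 0.92 (adjusted p = 0.470, SE 0.48) and was higher with the block (0.98, adjusted p = 0.0178). Ifngr1, which encodes the ligand-binding chain of the interferon gamma receptor, had one of 0.21 (adjusted p = 0.912, SE 0.50).

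Of 18 tested genes known to be induced by IL-2 and STAT5, 9 had a positive and 9 a negative log2 fold change, with a median of 0.01. In 7 the groups did not overlap, beside 20.2% of all genes, 4 being higher (beside 11.4%) and 3 lower (beside 8.76%). By edgeR 1 was called and by voom 0, each beside 2.31% of all genes. DESeq2 called 3, beside 6.92%, which were Il1rl1, Ccnd3 and, named after its values were seen, Cdk6. The gene called by edgeR was Il1rl1, the IL-33 receptor gene of tissue Tregs, placed in the list with its rise in these data already known. It rose from 22.9, 17.4 and 13.5 CPM without ILT3 to 45.2, 276 and 179 CPM with it (log2 fold change 3.22, SE 0.60, adjusted p = 0.0393). The call was lost without any single library other than ILT3+ sample 1, at adjusted p of 0.0649 to 0.177, with voom (adjusted p = 0.123) and without the filter on low counts (adjusted p = 0.0586). With the block Gzmb, encoding granzyme B (2.39, adjusted p = 0.0393), and Tnfrsf9, encoding 4-1BB (0.89, adjusted p = 0.0316), were also higher, and Ccnd3, encoding cyclin D3 (-0.64, adjusted p = 0.0203), was lower. On exon reads with the block Ccnd3 was at -0.10 (adjusted p = 0.703), so its difference was not seen in exon reads. Gzmb was counted at 27.2, 3.61 and 5.89 CPM without ILT3 and 53.5, 32.7 and 49.1 CPM with it, with ILT3- sample 1 the highest of its group but below every ILT3+ library. Its log2 fold change without both samples numbered 1 went from 1.90 (adjusted p = 0.276) to 3.13 (adjusted p = 0.00501). Ccnd3 (-0.69, adjusted p = 0.0424) and Cdk6 (1.52, adjusted p = 0.00909) were also called without them. Tnfrsf4, which encodes OX40, had a log2 fold change of 0.20 (adjusted p = 0.836, SE 0.27).

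In the PI3K and MAP kinase arm of the IL-2 receptor edgeR called 0 of 12 genes, DESeq2 1 and voom 0, and 3 reached p under 0.05 in edgeR before adjustment. Gab2, an adaptor gene named after its values were seen, had the largest value of the list, at 1.32, 5.74 and 5.96 CPM in ILT3- and 36.5, 19.7 and 24.1 CPM in ILT3+ libraries (log2 fold change 2.61, SE 0.58, adjusted p = 0.0697). It was called by DESeq2 (adjusted p = 0.000113), on exon reads (adjusted p = 0.0327), on unique reads, and without both samples numbered 1 (1.93, adjusted p = 0.021). On exon reads its log2 fold change was 5.72 (SE 1.00). Exon CPM per kilobase was then at or near 0 in ILT3- libraries (0, 0.018 and 0.048), beside 2.39, 1.07 and 0.774 in ILT3+ libraries. Pik3r1, a regulatory subunit of PI3K, had a log2 fold change of -0.59 (adjusted p = 0.171, SE 0.18) and was lower with the block (adjusted p = 0.0459). Inpp5d, the phosphatase SHIP-1 that opposes PI3K, was counted at 251, 221 and 235 CPM without ILT3 and 317, 339 and 303 CPM with it (log2 fold change 0.44, SE 0.16, adjusted p = 0.262). Pik3cd, the leukocyte PI3K catalytic subunit, had one of -0.25 (adjusted p = 0.817, SE 0.31), which was positive without both samples numbered 1.

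**Figure D4:**
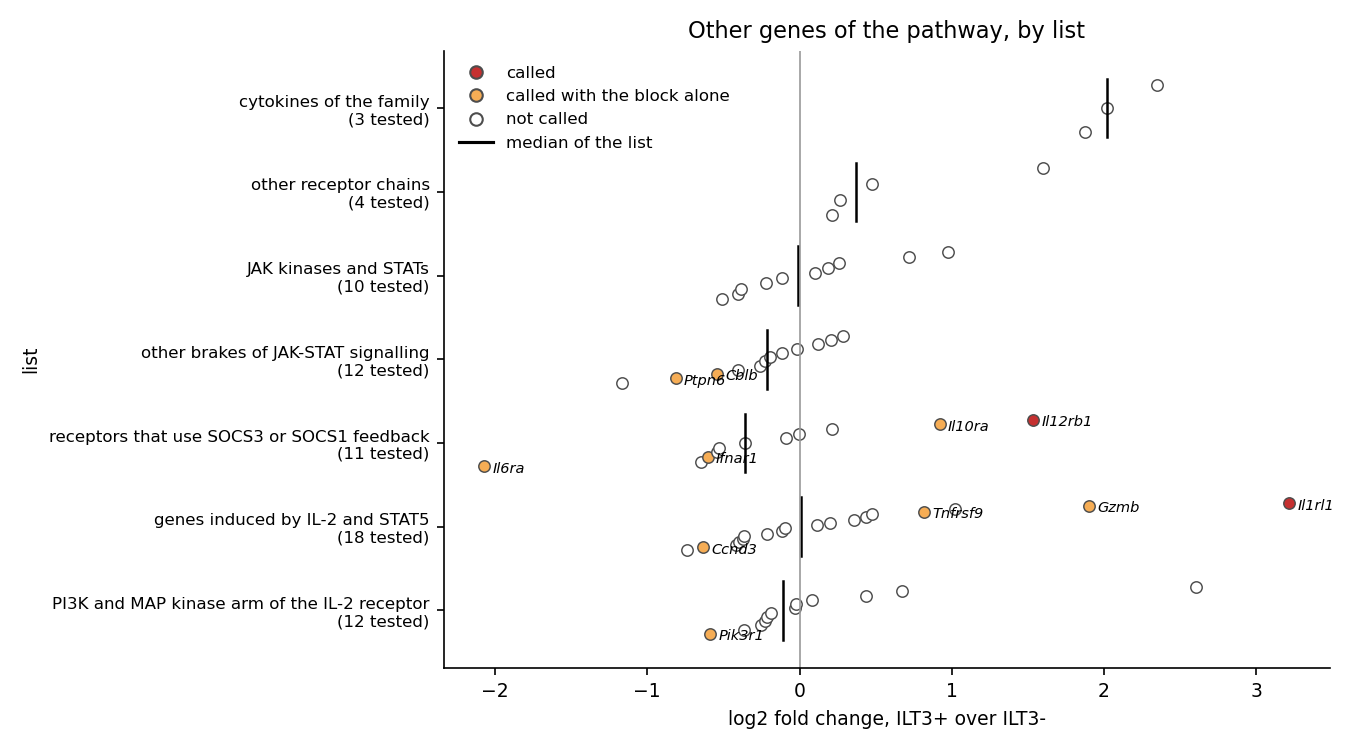
Log2 fold change of ILT3+ over ILT3- for the 70 tested genes of 7 lists, with red points for genes called by edgeR without the block, orange points for those called with the block alone and black bars for the median of each list. The 2 red points are Il12rb1 and Il1rl1, and the medians range from -0.36 for the receptors listed as under SOCS feedback to 2.02 for the 3 tested cytokines.

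Markers of other cell types are given because most of these receptors and SOCS genes are also expressed outside T cells. The 6 T cell markers summed to 3093 to 4113 CPM in ILT3- and 2735 to 3639 CPM in ILT3+ libraries, and the 5 Treg markers to 3474 to 3829 and 3326 to 3887 CPM, with 0 of 6 and 0 of 5 called. Foxp3 was at 676 to 1123 CPM in ILT3- and 757 to 1003 CPM in ILT3+ libraries. Summed dendritic cell markers, a list of 9 that includes MHC class II genes, were 159 to 178 CPM in ILT3- and 1572 to 2599 CPM in ILT3+ libraries (4 of 7 tested genes called). In this list 1 gene was at 0 in every ILT3- library and another 1 was at 0 in every ILT3+ library. Summed monocyte and macrophage markers were 13.5 to 22.1 CPM in ILT3- and 719, 189 and 171 CPM in ILT3+ samples 1, 2 and 3 (2 of 6 tested genes called), with Csf1r at 266, 2.25 and 0.399 CPM in the same libraries. B cell markers summed to 20.7 to 29.8 and 28.6 to 64.5 CPM, and erythroid and platelet markers to 0.550 to 4.45 and 37.4 to 178 CPM (2 of 3 tested genes called, with Pf4 and Ppbp at 0 in all 6 libraries). Plasmacytoid dendritic cell markers summed to 103 to 116 and 200.005 to 239.9 CPM, plasma cell markers to 174 to 244 and 119 to 315 CPM, and CD8 markers to 11.5 to 30.8 and 13.8 to 17.8 CPM. Neutrophil, and mast cell and basophil, markers stayed under 3 CPM in every library. The part of these cells in the levels of the receptors and SOCS genes was not tested. In ILT3- sample 1, which was high for Socs1, Socs2, Socs3 and Cish, the CD8 markers summed to 30.8 CPM, beside 11.5 and 17.1 CPM in ILT3- samples 2 and 3, and the B cell markers to 29.8 CPM, beside 20.7 and 21.1 CPM. Treg markers (3829 CPM, beside 3576 and 3474 CPM) and Foxp3 (1123 CPM, beside 676 and 787 CPM) were also highest there. Erythroid and platelet (4.45 CPM, beside 0.550 and 1.02 CPM) and mast cell and basophil markers (2.88 CPM, beside 1.65 and 1.09 CPM) were highest there too. Plasma cell (174 CPM, beside 210 and 244 CPM) and NK and innate lymphoid markers (19.9 CPM, beside 23.3 and 23.2 CPM) were lowest. In ILT3+ sample 1, the highest of its group for Socs2 and Socs3, CD8 markers summed to 17.4 CPM, beside 13.8 and 17.8 CPM. Dendritic cell (2599 CPM, beside 1675 and 1572 CPM) and B cell markers (64.5 CPM, beside 37.0 and 28.6 CPM) were highest there. So were erythroid and platelet (178 CPM, beside 37.4 and 40.0 CPM) and, as given above, monocyte and macrophage markers. Treg (3326 CPM, beside 3420 and 3887 CPM) and plasma cell markers (119 CPM, beside 292 and 315 CPM) were lowest. NK and innate lymphoid markers (156 CPM, beside 221 and 192 CPM) were also lowest.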

How the data were processed

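Per the labels' protocols, full-length cDNA was made from 1 ng of RNA per sample with SmartSeq V2 chemistry and libraries with Nextera XT. Reads were placed on GRCm38, per the submitters' processing notes. Which aligner, counting tool, annotation and strand setting were used is not given in the sources used here. The authors deposited 1 table of read counts per sample, without normalization. Per the file headers, reads of genes, exons and introns are listed, both in total and unique. Exon and intron reads add up to the total gene reads in all 38924 rows. Reads carry no molecular identifiers.

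The test was edgeR's quasi-likelihood test (edgeR 4.0.16, R 4.3.3) on total gene reads, robust, with group as the only term. TMM factors and filterByExpr (minimum count 10, minimum total 15) were used, and p-values were adjusted by Benjamini-Hochberg over all tested genes. SE is the log2 fold change over the root of F. Alternatives used DESeq2 1.42.0, limma 3.58.1 (voom), other reads, factors and filters, a replicate block and fewer libraries. The deposited RPKM column was not used. No 2 libraries were copies of each other, since chi-square per degree of freedom was 18.3 to 128 between them. Tests were tried on simulated data.

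Only the fits with a block took same-numbered samples as paired, and the main test did not. The ground for the block was that their deviations correlated at 0.40, 0.26 and 0.271 in these same data. The labels do not state a pairing, and the bound of 0.1 was also exceeded by 2 crossed pairs, those of numbers 2 and 3 (0.117 and 0.163).

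The members, lists and alternatives were chosen with earlier results of these data known. Named genes were the 10 members, pathway genes called with or without the block, the 2 most abundant tested genes of each list and the 3 genes nearest in profile to the member with the smallest p. A gene that this rule names is not reported here.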

Additional observations from a re-analysis of the deposited data

How the results depend on the processing

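The number of genes called depended on the fit. EdgeR called 316 genes (2.31% of those tested), voom 316 (2.31%), unique reads 340 (2.68%) and exon reads 236 (2.05%). DESeq2 called 948 (6.92%), the replicate block 932 (6.81%), exon reads with the block 700 (6.07%) and unique reads with the block 825 (6.5%). Without both samples numbered 1 it was 786 (5.64%), and 774 (6.62%) on exon and 789 (6.11%) on unique reads. Leaving out 1 replicate gave 31 (0.215%) to 322 (2.24%). The counts below stand beside these shares. Of the 10 receptor and SOCS genes, where edgeR called 0, Il7r was the 1 called by DESeq2 and by the block on total, exon and unique reads. Without both samples numbered 1, 2 were called (Socs2 and Cish), and 3 on exon and on unique reads (with Il2rb). Leaving out 1 replicate called 0 to 1. Of the 70 other pathway genes, where edgeR called 2, exon and unique reads gave 3 each (with Gab2), voom called 1, DESeq2 10, the block 11 on total and unique and 10 on exon reads, and the fit without both samples numbered 1 called 9, or 10 on exon and on unique reads. Leaving out 1 replicate called 0 to 4. The cause of these shifts was not tested. Fits of exon or unique reads without both samples numbered 1, and of unique reads with the block, were chosen after seeing the data.

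Il2ra, Il2rg and Il21r kept their direction and stayed uncalled in all 19 alternatives, though Il2rg fell to 0.019 on unique reads without both samples numbered 1. The log2 fold change turned for Il4ra without both samples numbered 1 (0.17, and 0.13 on exon and 0.16 on unique reads) and ran from -0.47 to 0.31 when 1 replicate was left out. For Socs1 it turned in the same fits (0.87, 0.81 and 0.86) and ran from -2.35 to 0.44. For Pik3cd it was 0.012 and, on unique reads, 0.0088, and ran from -0.46 to 0.14. Leaving out 1 replicate gave -0.39 to 1.66 for Socs3, -0.16 to 0.70 for Ifngr1 and -0.0044 to 0.43 for Tnfrsf4. With 3 samples a group, leaving out 1 leaves 2, and 18 to 167 reads per library limit Socs1.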
